A study of Mus musculus with 8 samples.

Results

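The transcription regulators of the integrated stress response were followed in RNA-seq counts from mouse neural progenitor cells. The group was chosen by gene symbol and holds ATF4, its basic leucine zipper (bZIP) partners and its feedback regulators: Atf4, Atf5, Ddit3, Cebpb, Cebpg, Atf3, Jdp2, Trib3, Ppp1r15a and Nupr1. All 10 symbols were found among the 32499 genes of the table, and all 10 were abundant enough to be tested. On GRCm38, Atf5, Cebpg, Nupr1 and Ppp1r15a lie on chromosome 7, Cebpb and Trib3 on chromosome 2, Atf3 on 1, Ddit3 on 10, Jdp2 on 12 and Atf4 on 15. The cells came from C57BL/6 embryos at embryonic day 14. Their neural tubes were dissociated, and progenitors were sorted with NeuroFluor CDr3, a dye that binds the radial glial protein Fabp7. There were 4 libraries with the genotype label 53BP1 KO (KO-labelled below) and 4 libraries labelled control. The KO-labelled embryos came from males with in-frame CRISPR deletions in the 53BP1 locus mated to females of the Trp53bp1tm1Jc knockout line, and the controls were wild-type embryos, per the labels' protocols. Whether the cells of a library were used directly or after culture is not stated there. 53BP1, the product of Trp53bp1, helps to choose how broken DNA ends are rejoined.

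The integrated stress response starts when kinases that sense amino acid shortage, unfolded proteins, haem shortage or double-stranded RNA phosphorylate the translation initiation factor eIF2. Most protein synthesis then slows, while translation of a few mRNAs, Atf4 among them, increases. ATF4 dimerises with C/EBP and related bZIP proteins and raises transcription of genes for amino acid supply, and it also induces its own modulators, such as CHOP (Ddit3), the pseudokinase Trib3 and the phosphatase subunit GADD34 (Ppp1r15a). RNA levels do not report the translation of Atf4 or the phosphorylation of eIF2.

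The KO-labelled libraries held 11081419 to 24339621 counts and the control libraries 15343046 to 18189045. Trp53bp1 itself had 30.4, 33.8, 19.2 and 25.2 CPM (read counts scaled to the effective size of their library) in KO-labelled libraries 1 to 4, against 27.2, 26.4, 26.9 and 26.6 CPM in control libraries 1 to 4, and edgeR gave an adjusted p of 0.96 for its log2 fold change of 0.01 (SE 0.14). The labels do not say which exons the deletions remove, so this count does not check them. Sex-linked genes did separate the groups. Xist, the RNA of the inactive X chromosome, had 9 to 16 counts in KO-labelled libraries against 23853 to 26134 in controls, and the Y-linked Ddx3y had 579 to 1064 counts against 0 in every control. Sex and genotype label coincided in all 8 libraries and cannot be told apart in any difference below. Any difference in parentage between the groups, whose origins are given above, cannot be separated from the label either. Of 10 progenitor markers 5 rose and 2 fell. The list summed to 9161 to 12597 CPM in KO-labelled libraries and 9659 to 11749.6 CPM in controls. Most of this sum was Fabp7, whose product the sorting dye binds, with means of 7793 and 7591 CPM. The sum therefore says little about the other markers. The 5 that rose were Msi1 (by 0.87 on the log2 scale, SE 0.14), Sox2 (0.78, SE 0.10), Pax6 (0.50, SE 0.13), Hes5 (0.47, SE 0.14) and Slc1a3 (0.31, SE 0.09). The 2 that fell were Nes (by 0.90 on the log2 scale, SE 0.13) and Vim (by 0.39, SE 0.09). Red blood cell markers summed to 1.43 to 2.87 CPM in KO-labelled libraries and 1.53 to 2.77 CPM in controls. Microglial markers summed to 1.01 to 2.44 CPM in KO-labelled libraries and 1.75 to 3.43 CPM in controls, and the single one that could be tested, Tmem119, fell. Of 3 endothelial markers tested 2 fell, with a sum over the list of 2.98 to 7.06 CPM in KO-labelled libraries against 8.77 to 14.9 CPM in controls. Of 6 astrocyte markers 5 rose. Their sum was 589 to 719.9 CPM in the KO-labelled libraries against 208 to 300.3 CPM in the controls. Most of it was Slc1a2, with means of 459 and 212 CPM. Of 5 mesenchymal markers tested 4 fell, with a sum of 17.8 to 24.7 CPM in KO-labelled libraries against 42.0 to 97.3 CPM in controls. Of 8 neuron markers 2 rose and 2 fell, with sums of 368 to 445 against 399 to 523 CPM. Most of that was Map2, with means of 345 and 389 CPM. The astrocyte and neuron sums therefore say little about the other markers of those lists. Among all genes tested the shares were 16.1% rising and 13.9% falling. The part of these cell type differences in the results below was not tested. In such bulk libraries a change in the number of expressing cells and a change in RNA per cell cannot be told apart.

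All 10 regulators rose in the KO-labelled libraries, and for all 10 every KO-labelled library lay above every control. Over all 15021 genes tested, 16.1% rose and 15.9% had every KO-labelled library above every control. The regulators' median log2 fold change was 2.74, against 0.00 over all genes tested. A rise of more than 2-fold was found for 9 of the 10, against 3.95% of all genes. The range ran from 0.97 for Atf4 to 6.03 for Trib3. The members' summed level was 998 to 1259 CPM in the KO-labelled libraries and 202 to 222 CPM in the controls. The members were chosen with earlier results of these data known, so their shared direction is not independent evidence.

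**Figure D1:**
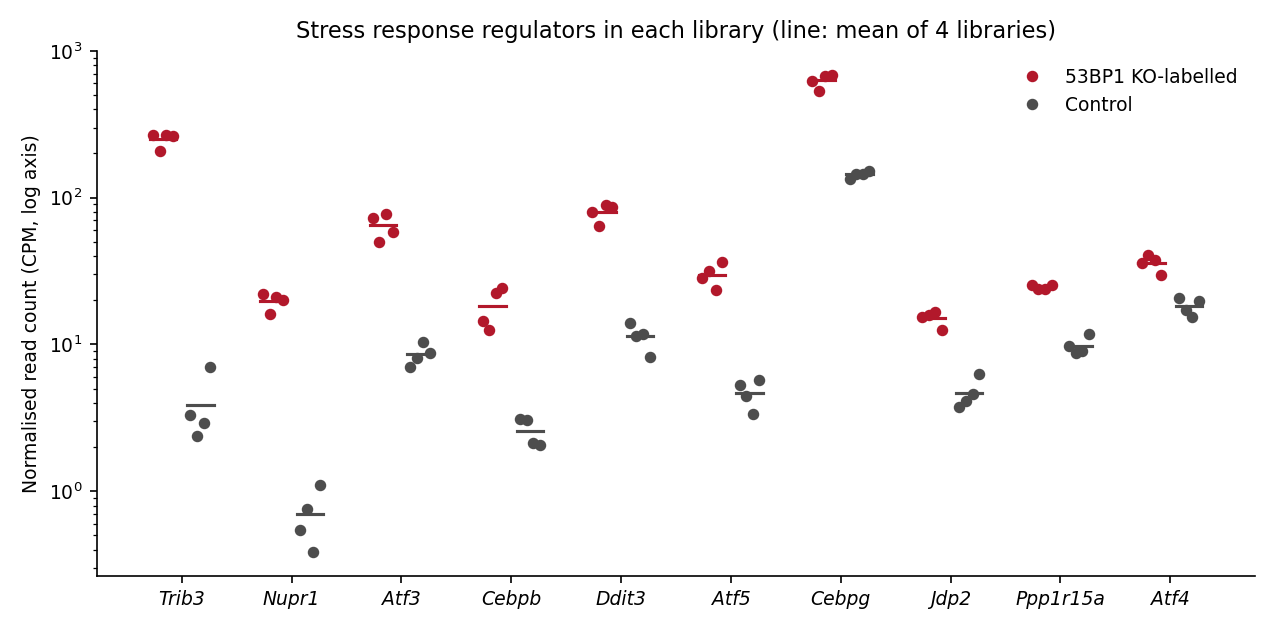
Normalised read count (CPM, log axis) of the 10 regulators in each of the 4 KO-labelled (left of each pair) and 4 control libraries, ordered by fold change, with a line at each group mean. No gene's groups overlap, and the distance between them is greatest for Trib3 (252 against 3.89 CPM) and smallest for Atf4 (36.0 against 18.3 CPM).

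Promoter sequences were read for the regulators because they moved together. The RefSeq table of GRCm38.p6 gave windows for all 10 genes, 13 windows in all, each from 250 bases before to 50 bases after an annotated start. The C/EBP-ATF response element, the composite site bound by ATF4 with a C/EBP partner, was searched as TGATGNAA on both strands (TTNCATCA on the other). It was found in the windows of Atf3, Nupr1, Jdp2 and Trib3. Those are 4 of 10 members, against 2.67% of the 10665 tested genes with a window, and 9 of 25 ATF4 target genes with a window also held it. The cAMP response element, bound by ATF/CREB factors, was searched as TGACGTNA and its reverse complement TNACGTCA and was found for Atf3 and Ppp1r15a, against 5.70% of tested genes. The AP-1 site TGANTCA was found once, for Ddit3, against 6.00% of tested genes. These matches are descriptions of letters, not of binding. The motifs were chosen with the promoter sequences in view, and the lists with earlier results known. The shares of members and target genes are therefore not independent evidence. The 250 bases before the start of the genes whose match lies there are shown 5′ to 3′ in lower case, with matches to the C/EBP-ATF or cAMP element in capitals. For Trib3, whose match begins 15 bases into the transcript, 30 bases around it are shown. Jdp2 has 3 annotated starts, and the window of its second is given.
Nupr1 (chr7:126625471-126625720, - strand): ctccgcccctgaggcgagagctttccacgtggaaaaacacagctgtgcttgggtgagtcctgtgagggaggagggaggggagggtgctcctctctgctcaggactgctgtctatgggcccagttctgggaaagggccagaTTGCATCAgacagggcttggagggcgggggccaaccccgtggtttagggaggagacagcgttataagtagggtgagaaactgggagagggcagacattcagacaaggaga
Atf3 (chr1:191183334-191183583, - strand): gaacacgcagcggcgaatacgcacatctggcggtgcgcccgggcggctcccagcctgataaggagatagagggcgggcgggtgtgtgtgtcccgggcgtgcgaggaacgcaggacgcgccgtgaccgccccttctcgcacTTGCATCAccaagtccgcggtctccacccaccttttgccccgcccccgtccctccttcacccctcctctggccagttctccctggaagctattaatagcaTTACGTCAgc
Jdp2 (chr12:85599166-85599415, + strand): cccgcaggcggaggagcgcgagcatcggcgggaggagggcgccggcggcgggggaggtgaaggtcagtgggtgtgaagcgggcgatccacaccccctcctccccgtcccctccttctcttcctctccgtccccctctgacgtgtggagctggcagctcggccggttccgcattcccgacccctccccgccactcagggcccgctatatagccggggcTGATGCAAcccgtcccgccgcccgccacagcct
Ppp1r15a (chr7:45526269-45526518, - strand): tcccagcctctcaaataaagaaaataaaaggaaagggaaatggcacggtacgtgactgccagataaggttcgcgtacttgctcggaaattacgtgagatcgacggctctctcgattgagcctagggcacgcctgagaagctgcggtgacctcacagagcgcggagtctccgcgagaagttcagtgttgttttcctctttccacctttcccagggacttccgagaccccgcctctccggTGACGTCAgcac
Trib3 (chr2:152344028-152344057, - strand): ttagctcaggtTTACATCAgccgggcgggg

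Among these, Nupr1 and Atf3 carried the same 8 letters, TTGCATCA, and each began 110 bases before the start. Jdp2 carried the same element in the other orientation, TGATGCAA, beginning 33 bases before its start, and Trib3 a variant, TTACATCA. Close to the start, Atf3 held TTACGTCA from position -10 and Ppp1r15a TGACGTCA from position -12. No element was found in the windows of Atf4, Atf5, Cebpb or Cebpg, which says only that these letters are not within them.

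Atf4 encodes the central factor of the response. It had 36.0, 40.4, 37.7 and 29.9 CPM in KO-labelled libraries 1 to 4, against 20.7, 17.3, 15.4 and 19.9 CPM in control libraries 1 to 4. The lowest KO-labelled library was 1.44 times the highest control, the narrowest gap of the group. In edgeR this was a log2 difference of 0.97 with an SE of 0.12 and a 95% interval of 0.70 to 1.24, at an adjusted p of 4.99e-05. Atf5, the nearest relative of Atf4, is also controlled through upstream open reading frames. Its level was 28.2, 31.6, 23.6 and 36.4 CPM in the KO-labelled libraries and 5.26, 4.45, 3.35 and 5.69 CPM in the controls. Every KO-labelled value was at least 4.15 times the highest control, and edgeR put the log2 rise at 2.67 (SE 0.17) with an adjusted p of 5.97e-08. Within libraries, the log2 ratio of Atf5 to Atf4 counts averaged -0.27 ± 0.40 in the KO-labelled libraries and -1.98 ± 0.16 in the controls (SD, n = 4 each). The difference of 1.70 was tested with an exact two-sided permutation test (p = 0.0286, the smallest that 4 against 4 allows, and 0.0357 adjusted over 5 gene pairs). Atf5 thus rose more than Atf4 on a scale that does not depend on library scaling.

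The C/EBP family members differed greatly in level. Cebpg, a short C/EBP protein that acts by dimerising with ATF4 and others, was the most abundant regulator in CPM, with 628, 533, 679 and 689 CPM in the KO-labelled libraries and 134, 146, 145 and 151 CPM in the controls. It made up 52.9% to 55.4% of the regulators' summed CPM in the KO-labelled libraries and 66.5% to 70.8% in the controls. It rose by 2.13 on the log2 scale (SE 0.10), for which edgeR gave an adjusted p of 1.75e-09, and its spread was small in both groups. Cebpb, a transcription factor of inflammation and differentiation, was the most variable of the KO-labelled group, at 14.5, 12.5, 22.3 and 24.4 CPM in the KO-labelled libraries against 3.12, 3.04, 2.13 and 2.07 CPM in the controls. KO-labelled libraries 3 and 4 were higher than 1 and 2, a coefficient of variation of 31.8% over the group. It rose by 2.83 on the log2 scale, with an SE of 0.23 and, from edgeR, an adjusted p of 7.33e-07. The log2 ratio of Cebpb to Cebpg was -5.15 ± 0.32 in the KO-labelled libraries and -5.81 ± 0.37 in the controls (SD, n = 4 each), with overlapping libraries. Its difference of 0.66 did not pass (exact two-sided permutation p = 0.0857, also after adjustment over the 5 pairs); leaving out control 1 gave 0.79 with an exact p of 0.0286. Ddit3 encodes CHOP, a C/EBP relative that promotes cell death under prolonged stress. It had 79.4, 64.4, 89.7 and 86.3 CPM in the KO-labelled libraries and 14.1, 11.5, 11.8 and 8.28 CPM in the controls. All KO-labelled values were at least 4.57 times the highest control, and in edgeR the log2 rise of 2.81 (SE 0.15) had an adjusted p of 8.91e-09. Cebpa, another family member chosen here after its values were seen, had a log2 fold change of -0.05 with a 95% interval of -0.41 to 0.32.

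Some of these genes share exonic bases with a gene on the opposite strand in GENCODE M21, and the strand setting of the counting is not given in the sources used here. Cebpb shares 312 bases with Tmem189, which had a log2 fold change of -0.10. Ddit3 shares 68 bases with Mars, a tRNA synthetase gene that itself rose by 1.10, with a mean of 51.7 CPM in KO-labelled libraries and 24.1 CPM in controls. Atf5 shares 82 bases with Nup62, which had a log2 fold change of 0.06, and 82 bases with Il4i1. Ppp1r15a shares 12 bases with Tulp2, and Cebpg shares 73 bases with Gm44836 on the same strand. Fold changes of Il4i1, Tulp2 and Gm44836 are not given here. No other annotated gene matched a member's longest coding transcript over 100 or more bases at 95% identity, apart from Tmem189 with Cebpb and the divergent Gm47863 with Jdp2.

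Atf3 and Jdp2 encode close relatives that bind AP-1 and cAMP response elements. Atf3 is known as a rapidly induced stress gene and Jdp2 as a repressor partner of Jun. Atf3 had 73.2, 50.2, 76.9 and 58.3 CPM in the KO-labelled libraries and 7.02, 8.09, 10.4 and 8.79 CPM in the controls, and rose by 2.92 on the log2 scale (SE 0.16; edgeR adjusted p of 8.25e-09). Jdp2 had 15.3, 16.0, 16.7 and 12.6 CPM in the KO-labelled libraries and 3.78, 4.12, 4.58 and 6.27 CPM in the controls, and rose by 1.69 (SE 0.16; edgeR adjusted p of 3.68e-06). Both sets of groups were apart, that of Jdp2 by a factor of 2.01 between the nearest libraries. The log2 ratio of Atf3 to Jdp2 was 2.08 ± 0.29 in the KO-labelled libraries and 0.88 ± 0.29 in the controls (SD, n = 4 each). The difference of 1.20 passed (exact two-sided permutation p = 0.0286, 0.0357 adjusted over the 5 pairs), so Atf3 rose more than Jdp2. Atf3 is also induced by tissue dissociation, and 17 immediate early and dissociation genes were examined beside it. Of the 16 that could be tested, 5 rose and none fell, with a median log2 fold change of 0.40, where 16.1% of all genes tested rose and 13.9% fell. Their summed level was 1453 to 1695 CPM in the KO-labelled libraries and 975 to 1531 CPM in the controls. Klf4, a zinc finger factor, rose by 2.27 (SE 0.12) and Ier2 by 0.64 (SE 0.12), while Fos (0.45, SE 0.21) and Jun (-0.09, SE 0.11) did not pass. Without KO-labelled 4 the number that rose was 3, and without control 4 a single gene fell. With no filter on low counts, and also with a replicate block, 9 rose. The part of dissociation in the level of Atf3 was not tested.

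The feedback regulators held both the largest and one of the smaller rises. Trib3, a pseudokinase that binds ATF4 and damps its activity, had 266, 209, 269 and 262 CPM in the KO-labelled libraries and 3.29, 2.39, 2.90 and 6.98 CPM in the controls. Control 4 stood above the other controls, and KO-labelled 2 below the other KO-labelled libraries, but every KO-labelled value was far above the highest control. Its log2 rise of 6.03, with an SE of 0.25, a 95% interval of 5.51 to 6.56 and an edgeR adjusted p of 6.75e-10, ranked 10 among the rises of all genes tested. Its share of the regulators' summed CPM reached 22.4% in the KO-labelled libraries and 3.15% in the controls. Trib2, a relative with a role in other signalling pathways, was abundant and had a log2 fold change of 0.01 (95% interval -0.18 to 0.20). Trib1 fell by 0.34 on the log2 scale (SE 0.10; edgeR adjusted p of 0.0165). The log2 ratio of Trib3 to Trib2 was -2.55 ± 0.09 in the KO-labelled libraries and -8.67 ± 0.78 in the controls (SD, n = 4 each; exact two-sided permutation p = 0.0286, 0.0357 adjusted over the 5 pairs).

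Ppp1r15a encodes GADD34, the stress-induced subunit that directs protein phosphatase 1 to eIF2 and so ends the response. Its level was 25.3, 24.0, 23.7 and 25.4 CPM in the KO-labelled libraries and 9.76, 8.68, 9.03 and 11.8 CPM in the controls. The KO-labelled libraries were nearly alike, with a coefficient of variation of 3.64%, and edgeR put the log2 rise at 1.33 (SE 0.12) with an adjusted p of 1.43e-06. Ppp1r15b, its constitutive counterpart, had 223, 201, 205 and 247 CPM in the KO-labelled libraries and 142, 133, 142 and 153 CPM in the controls. It rose less, by 0.62 (SE 0.09; edgeR adjusted p of 0.000137), and had more counts than Ppp1r15a in every library. The log2 ratio of Ppp1r15a to Ppp1r15b was -3.15 ± 0.09 in the KO-labelled libraries and -3.86 ± 0.12 in the controls (SD, n = 4 each). That difference of 0.71 passed (exact two-sided permutation p = 0.0286, 0.0357 adjusted over the 5 pairs).

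**Figure D2:**
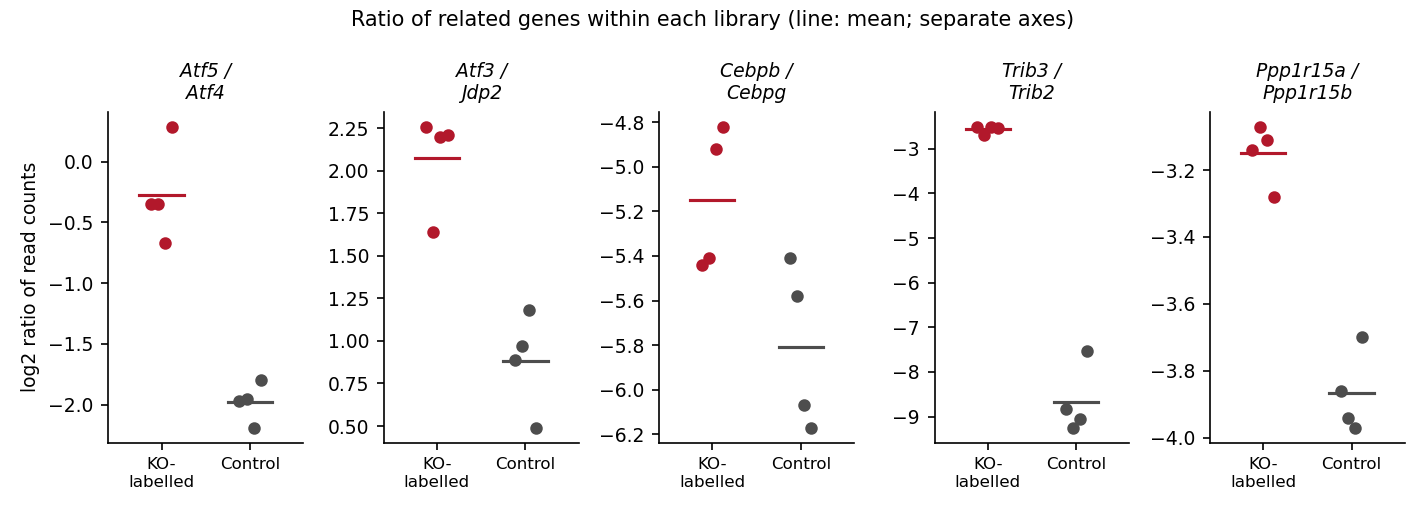
log2 ratio of read counts of 5 pairs of related genes within each library, with KO-labelled libraries left of controls, a line at each mean and a separate vertical axis for each pair. The groups overlap only for Cebpb over Cebpg, and the largest shift is 6.12 for Trib3 over Trib2.

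Nupr1 encodes a small chromatin-associated protein that is induced by many stresses and acts with other stress factors. The KO-labelled libraries had 447, 185, 371 and 479 counts, or 22.0, 16.1, 20.9 and 20.1 CPM. The controls had 10, 14, 6 and 17 counts, or 0.548, 0.760, 0.387 and 1.10 CPM. The groups were apart by a factor of 14.7 between the nearest libraries, and the log2 rise was 4.82, with an SE of 0.22, a 95% interval of 4.35 to 5.29 and an edgeR adjusted p of 1.52e-09. The size of this fold rests on few counts in the controls.

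Levels were compared between genes per kilobase of exon, on GRCm38 gene models. In the KO-labelled libraries Trib3 (118 ± 13.3 CPM per kilobase) and Cebpg (112 ± 12.7) were highest with overlapping ranges, followed by Ddit3 (46.7 ± 6.55, SD, n = 4) and Atf3 (23.3 to 35.7), each apart from its neighbours. Atf4 (15.3), Atf5 (11.9 to 18.3), Cebpb (12.2), Ppp1r15a (8.37), Nupr1 (7.87) and Jdp2 (7.05) came next, and each overlapped the following one. The order was different in the controls. Cebpg (25.7 ± 1.29) was far above Atf4 (7.77 ± 1.03), which overlapped Ddit3 (6.67 ± 1.40). Trib3 came eighth at 1.83 ± 0.986, and Nupr1 last at 0.278 ± 0.122, apart from Cebpb above it.

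The libraries of a group did not rank the regulators in the same way. KO-labelled 2, the shallowest library, had the lowest CPM of its group for 6 regulators (Atf3, Ddit3, Cebpb, Cebpg, Trib3 and Nupr1) and the highest for Atf4. KO-labelled 3 and KO-labelled 4 were each highest for 4. Among the controls, control 4 was highest for 6 regulators, Trib3 and Nupr1 among them, and lowest for Ddit3 and Cebpb. Without control 4 the log2 fold change was 6.45 for Trib3 and 5.09 for Nupr1.

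Genes downstream of ATF4 rose as a whole list. All 32 listed target genes were tested and all 32 rose, 30 of them by more than 2-fold, with a median log2 fold change of 2.01. The shares over all genes tested were 16.1% for a rise and 3.95% for a rise of more than 2-fold. Those with the largest rises were the hormone genes Adm2 (7.36, SE 0.22) and Fgf21 (6.28, SE 0.28), the glutathione-degrading enzyme gene Chac1 (5.05, SE 0.22) and the transsulfuration enzyme gene Cth (3.94, SE 0.16). The controls held only 1 to 4 counts of Adm2 and 2 to 9 counts of Fgf21, so the sizes of these folds rest on few reads. The smallest was Psat1, of serine synthesis (0.77, SE 0.09). The list was written with earlier results of these libraries known, so its direction is not independent evidence.

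Upstream of ATF4, among 15 genes of the eIF2 kinases, eIF2, eIF2B and their modulators, 3 rose and 3 fell, with a median of -0.19. Of all genes tested 16.1% rose and 13.9% fell, so these counts were near the background. The list leaves out the gamma subunit of eIF2. Its Y-linked gene Eif2s3y had 92.5 to 109 CPM in KO-labelled libraries and 0 to 0.0645 CPM in controls, which goes with the sex difference above. The X-linked copy is not given here, so these values do not give the total RNA for the subunit. Eif2s2, the beta subunit of eIF2, rose by 1.08 (SE 0.11; edgeR adjusted p of 8.61e-06), and Impact, an inhibitor of the amino acid sensor GCN2, rose by 0.57 (SE 0.08). Eif2ak3, which encodes the endoplasmic reticulum stress kinase PERK, fell by 0.51 on the log2 scale (SE 0.08; edgeR adjusted p of 0.000341), and Eif2s1, the phosphorylated subunit, fell by 0.35 (SE 0.11). Eif2ak4, which encodes GCN2, had 9.34 ± 2.34 CPM in KO-labelled libraries and 12.1 ± 3.16 CPM in controls (SD, n = 4 each). Its log2 fold change of -0.39 (95% interval -0.82 to 0.04) did not pass. The number that fell was 5 without control 4, 6 with upper-quartile scaling and 1 with no filter on low counts.

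Among the listed genes of the other arms of the unfolded protein response, more fell than rose. Of 18 genes of the ATF6 and XBP1 arms, 8 fell and 2 rose, with a median of -0.21. Over all genes tested, 13.9% fell and 16.1% rose. The chaperone cofactor gene Sdf2l1 fell by 1.29 on the log2 scale (SE 0.13) and the calcium-binding chaperone gene Calr by 0.71 (SE 0.12), whereas Atf6 itself rose by 1.35 (SE 0.09) and Sel1l, of the degradation machinery, by 1.11 (SE 0.10). Hspa5, the main chaperone of the compartment, had 63.7 CPM in the KO-labelled libraries and 58.9 CPM in the controls and did not pass (0.11, 95% interval -0.09 to 0.32). The list does not hold every gene of the compartment, so its counts apply to the listed genes only. Herpud1, an endoplasmic reticulum membrane protein gene outside this list, rose by 1.48 (SE 0.11). Spliced Xbp1 cannot be seen in gene counts. The number that fell was 5 without KO-labelled 1, KO-labelled 4, control 2 or control 3. It was also 5 with a replicate block, and 4 with no filter on low counts.

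**Figure D3:**
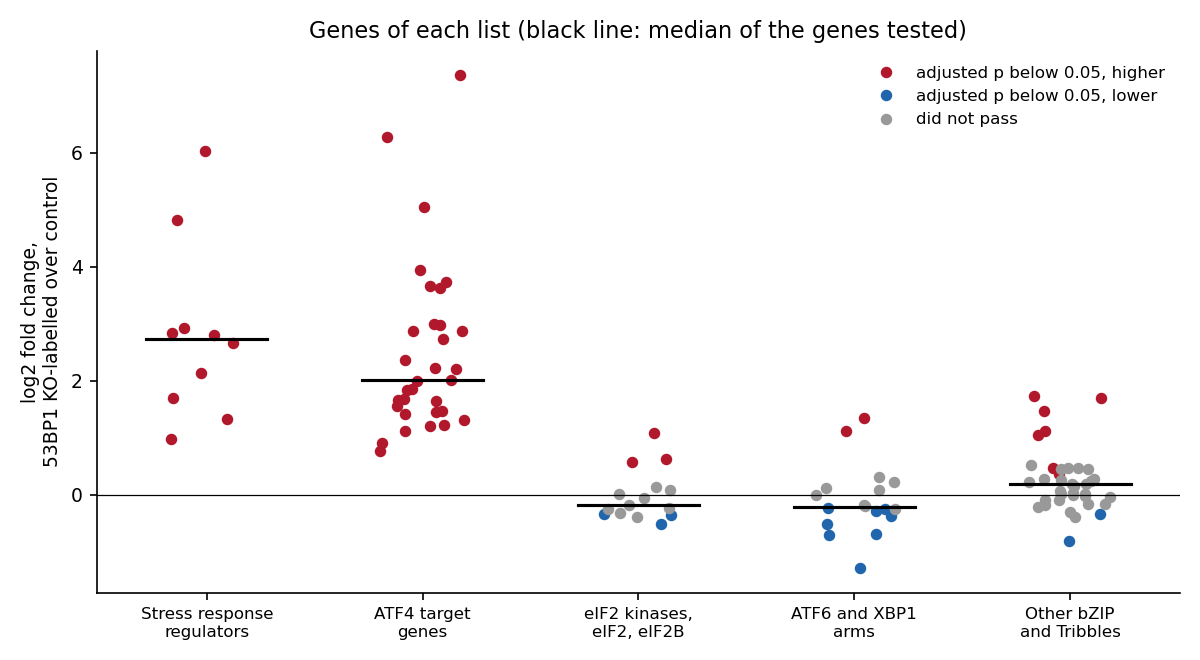
log2 fold change (KO-labelled over control) of every tested gene in the regulator group and 4 related lists, coloured by the edgeR call at an adjusted p of 0.05, with a black line at each median. The 10 regulators and 32 ATF4 target genes all lie above 0, while the other lists lie around it.

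Among 45 other bZIP and Tribbles genes in the table, 37 could be tested, 7 rose and 2 fell, with a median of 0.18. The rises were near the background of 16.1% of all genes tested, and 13.9% of all genes fell. The named rises were in Nfil3 (1.70, SE 0.19), a circadian repressor, Nfe2l1 (1.47, SE 0.10), which controls proteasome genes, Dbp (1.11, SE 0.26), a circadian activator, and Crebl2 (0.46, SE 0.12). Creb5 fell by 0.82 on the log2 scale (SE 0.13). The number that fell was 1 without KO-labelled 1, KO-labelled 4 or control 3, and with no filter on low counts 12 rose and 1 fell. With a replicate block 11 rose.

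**Figure D4:**
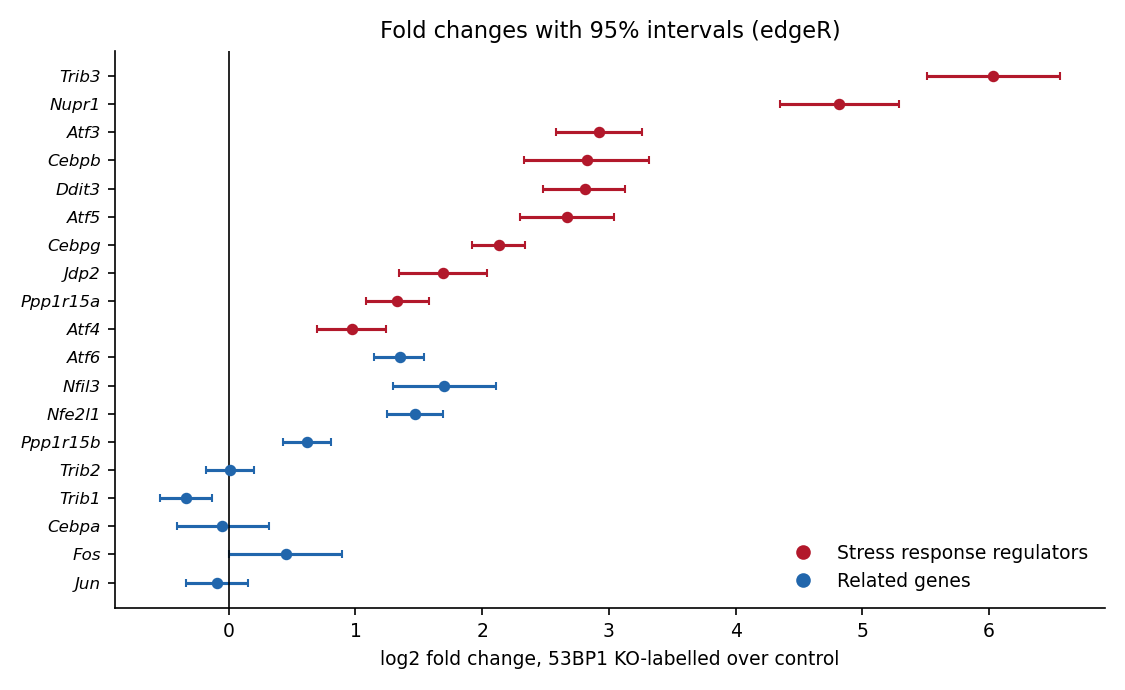
log2 fold change (KO-labelled over control) with its 95% interval from edgeR for the 10 regulators and 9 related genes. Every regulator's interval lies above 0, from Trib3 at 6.03 to Atf4 at 0.97, while those of Trib2, Cebpa and Jun include 0.

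The non-member genes whose log2 CPM followed Atf4 most closely over the 8 libraries were Rimkla (Pearson r = 0.980), Tmem150a (0.979), Tpp1 (0.977), Herpud1 (0.975) and Crls1 (0.974), of 10560 genes compared. All 8 libraries share the group and sex difference, which these correlations contain. After each group was centred on its own mean, r was between 0.71 and 0.89 for these 5 genes, chosen for a high r, and between -0.56 and 0.40 for the other regulators. Herpud1, an endoplasmic reticulum membrane protein gene, had 32.0 ± 2.78 CPM in the KO-labelled libraries and 11.5 ± 0.623 CPM in the controls (SD, n = 4 each).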

How the data were processed

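RNA-seq was made from 8 libraries of sorted mouse neural progenitors with a stranded total RNA kit and paired ends, per the labels' protocols. The authors deposited raw read counts, 1 value for each gene symbol and library. For how they were made, the submitters' processing notes list HTSeq 0.6.1p1, CASAVA and 2 build names, NCBIM37 and mm9. Which aligner and which strand option were used is not given in the sources here. Of 32499 genes, 1991 had no count. After filterByExpr and TMM scaling, all 15021 remaining genes entered 1 edgeR 4.0.16 fit (R 4.3.3) on group alone. Its quasi-likelihood p-values were adjusted by Benjamini-Hochberg and called below 0.05. CPM are counts scaled to the TMM-adjusted library size. The SE is the log2 fold change divided by the root of F. The fit was also run on simulated independent counts with few changed genes. That does not check it for data in which many genes differ. In a chi-square test over genes, controls 2 and 3 differed by 4.45 per degree of freedom and every other pair within a group by 13.8 to 36.2, so none was treated as a repeat deposit. This does not show separate embryos, and the labels do not say so: p-values measure spread among libraries only, possibly technical. For 5 gene pairs the log2 ratio of counts, with 0.5 added, was tested by exact permutation. Chromosome-level annotation, exon lengths and overlaps came from GENCODE M21 (GRCm38), copies from BLAST 2.17.0, and promoters from RefSeq.

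The members and lists were chosen with earlier results of these data known, and the motifs with the promoter sequences in view. Named genes are the members, Trp53bp1, Kdm6a and sex-linked genes, up to 4 rises and 2 falls per list where the higher group averaged 5 CPM or more, the pair partners, and the 5 genes most correlated with Atf4. Not all are printed. Cebpa, Fos, Jun, Hspa5, Eif2ak4, Psat1, Mars, Tmem189, Nup62 and Gm47863 stand outside the rule and were chosen after their values were seen. So do the markers Fabp7, Msi1, Sox2, Pax6, Hes5, Slc1a3, Nes, Vim, Slc1a2 and Map2. Il4i1, Gm44836 and Tulp2 also stand outside it and are named only for their overlaps. Alternatives were DESeq2 1.42.0, RLE and upper-quartile scaling, no filter, robust dispersion, a replicate block and leaving out each library. Those for the immediate early list were added after seeing the data.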

Additional observations from a re-analysis of the deposited data

Results flagged for a closer look

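Values of the named genes were examined for a library far from the other 3 of its group, in 101 groups of 4. A library was taken as far where its gap to the nearest other, divided by the group's range, passed Dixon's 95% critical value. By that definition chance gives about 1 group in 20, and 8 were found. Among the regulators, Trib3 had 209 CPM in KO-labelled 2, against 262 to 269 CPM in the other KO-labelled libraries. In the same library the log2 ratio of Atf3 to Jdp2 was 1.64, against 2.20 to 2.26 in the others, and Trib2 had 1341 CPM, against 1505 to 1523 CPM. KO-labelled 3 stood above the others of its group for Sdf2l1 (30.5 CPM, against 22.0 to 23.1) and Trib1 (47.7 CPM, against 42.4 to 42.9). In the controls, Atf6 had 126 CPM in control 4, against 148 to 150 CPM, and Rimkla 14.3 CPM in control 3, against 17.4 to 18.0 CPM. The Y-linked Kdm5d had 0.109 CPM in control 2 and 0 in the other controls.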

How the results depend on the processing

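Across 14 alternatives, all 10 regulators and all 32 ATF4 target genes rose, and each regulator's log2 fold change moved by a factor of at most 1.33 on the linear scale. The largest adjusted p of a regulator was 0.000378 over the alternatives in edgeR and DESeq2. The counts of the other lists depended more on the processing. With upper-quartile scaling 6 genes of the eIF2 list fell. With no filter on low counts 1 gene of the eIF2 list fell, 4 genes of the ATF6 and XBP1 arms fell, 12 other bZIP and Tribbles genes rose and 1 fell, and 9 immediate early genes rose. Leaving out 1 library gave 2 to 5 falls in the eIF2 list, 5 to 8 in the ATF6 and XBP1 arms and 1 to 3 among the other bZIP genes, and 3 to 5 rises and 0 to 1 falls among the immediate early genes. The log2 ratio difference of Cebpb over Cebpg was 0.54 to 0.79 and passed without control 1. Whether equal replicate numbers pair the libraries is not settled. The correlation of deviations from the group means between same-numbered libraries was 0.254, 0.279, -0.158 and 0.00987 for numbers 1 to 4. Between different numbers it was -0.319 to 0.154. Pairing is thus not excluded for numbers 1 and 2. With a replicate block, 5 genes of the ATF6 and XBP1 arms fell, 11 other bZIP genes rose and 9 immediate early genes rose. The cause of these shifts was not tested. With 10, 14, 6 and 17 counts in the controls, the fold of Nupr1 is limited by depth.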
